A study of Rattus norvegicus with 12 samples.

Results

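The genes described here are the monoamine oxidases Maoa and Maob, which break down catecholamines and other amines, and the adrenergic receptors Adrb1, Adrb3, Adra1a, Adra1b, Adra1d and Adra2a, through which adrenaline and noradrenaline act. Every probe set that the annotation of the array assigned to 1 of these 8 genes alone was taken, which gave 12 probe sets of 8740 tested: 3 for the oxidases and 9 for the receptors. The 8 genes were chosen with results of these arrays known, among them the level of Maob in shocked rats, so their values are given as a description.

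Lung from male Sprague-Dawley rats was profiled on 12 one-colour arrays, 3 in each of 4 groups, and every group had a laparotomy, which is the trauma (T). T/HS rats then had 90 min of hemorrhagic shock at a pressure of 30 mmHg with later resuscitation, and had lung injury. T/HS-LDL rats had the same shock after ligation of the mesenteric lymph duct (LDL), which carries lymph from the gut towards the lung, and had no measurable lung injury. T/SS-LDL rats had the ligation with a sham-shock period, and had neither hemorrhage nor lung injury. T/SS rats had cannulation and a sham-shock period in which no blood was drawn, with no lung injury. Harvest followed 3 h after the end of the period and 4.5 h after its start in all groups, and the age of the rats was not given. In whole lung, fewer cells of a type and less RNA per cell cannot be told apart.

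Every group held 1 pair of near-identical arrays, whose log2 differences had a robust SD of 0.00993 to 0.0548; that of the 8 remaining same-group pairs was 0.164 to 0.232. Each such pair was averaged and counted as 1 sample, which left 8 samples, 2 per group: replicates 1 and 3 averaged in T/HS, T/HS-LDL and T/SS-LDL, replicates 2 and 3 averaged in T/SS, and 1 single array in each. Values below are in this order, with the averaged sample first in T/HS, T/HS-LDL and T/SS-LDL and replicate 1 first in T/SS. The values are array intensities on a linear scale, with array medians of 651 to 680, and differences are on the log2 scale with the standard error (SE) of limma, a linear model fitted to all probe sets. All 7 lung tissue markers were measured, with summed intensities of 178868 to 181739 in T/HS, 177559 to 185477 in T/HS-LDL, 168785 to 176554 in T/SS-LDL and 179463 to 182423 in T/SS. This sum rests mostly on the brightest markers, Sftpc (geometric mean 31276), Ager (31137), Sftpb (30971) and Sftpa1 (30728), and hides dimmer ones such as Aqp5 (5623). Those bright markers stood at percentiles 99.7 to 99.98 of all probe sets. So near the top of the scale a probe set may not follow a change, so the sum does not measure how much lung tissue a sample held. In T/HS minus T/SS 3 of the 7 lay above 0 and 4 below, with Sftpd at 0.22 and Aqp5 at -0.80. All 7 lay below 0 in T/SS-LDL minus T/SS, with Aqp5 at -0.48. The number of arrays limits the precision, and the p-values measure only the spread between these samples, which may be technical.

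Noradrenaline is released by sympathetic nerves and adrenaline by the adrenal medulla, and blood loss is a strong stimulus for both. Beta receptors couple to the G protein that raises cyclic AMP, alpha-1 receptors to the one that releases calcium, and alpha-2 receptors to the one that lowers cyclic AMP. In lung, alpha-1 receptors constrict vessels, and beta receptors relax airways and drive the clearance of alveolar fluid. The lung's endothelium also takes up noradrenaline and serotonin from the blood and degrades them with monoamine oxidase, a flavoenzyme of the outer mitochondrial membrane that yields an aldehyde, ammonia and hydrogen peroxide.

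Maob, the oxidase that prefers phenylethylamine, was the member with the widest range over the samples. Its probe set (M23601_at) had intensities of 1161 and 1364 in T/HS, 2004 and 2707 in T/HS-LDL, 3664 and 2730 in T/SS-LDL, and 2640 and 2736 in T/SS. Both T/HS samples lay below each of the 6 other samples. The group means were 1263 ± 144 in T/HS, 2356 ± 497 in T/HS-LDL, 3197 ± 660 in T/SS-LDL and 2688 ± 67.8 in T/SS (SD, n = 2 each). From low to high the order of the groups was T/HS, T/HS-LDL, T/SS and T/SS-LDL: T/HS stood apart from its neighbour, while T/HS-LDL overlapped T/SS and T/SS overlapped T/SS-LDL. The highest sample was 3.16 times the lowest, a range at percentile 97.2 of all probe sets, whose median range was 1.35-fold.

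Maob differed by -1.09 ± 0.20 between T/HS and T/SS (SE, n = 2 samples each; 95% interval -1.56 to -0.63), a level 0.468 times that of T/SS. Between T/HS and T/HS-LDL, which both had shock and differed in ligation and lung injury, it differed by -0.89 ± 0.20 (95% interval -1.35 to -0.42). Between T/HS-LDL and T/SS-LDL the difference was -0.44 ± 0.20 (95% interval -0.91 to 0.02). The T/HS-LDL samples both lay below the T/SS-LDL samples there, by a gap of 2707 in T/HS-LDL against 2730 in T/SS-LDL. Between T/SS-LDL and T/SS it was 0.23 ± 0.20 (95% interval -0.23 to 0.70), with groups that overlapped. The shock difference with the duct open minus that with the duct ligated, the interaction, was -0.65 ± 0.28 (95% interval -1.31 to 0.00). None of these passed the limma threshold of an adjusted p of 0.05. With 1 sample left out at a time, the difference between T/HS and T/SS ran from -1.21 to -0.98. That between T/HS-LDL and T/SS-LDL ran more widely, from -0.66 without T/HS-LDL replicate 2 to -0.22 without the averaged T/HS-LDL sample, and was -0.23 without the averaged T/SS-LDL sample and -0.65 without T/SS-LDL replicate 2. That between T/SS-LDL and T/SS was 0.02 without the averaged T/SS-LDL sample and 0.45 without T/SS-LDL replicate 2.

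**Figure D1:**
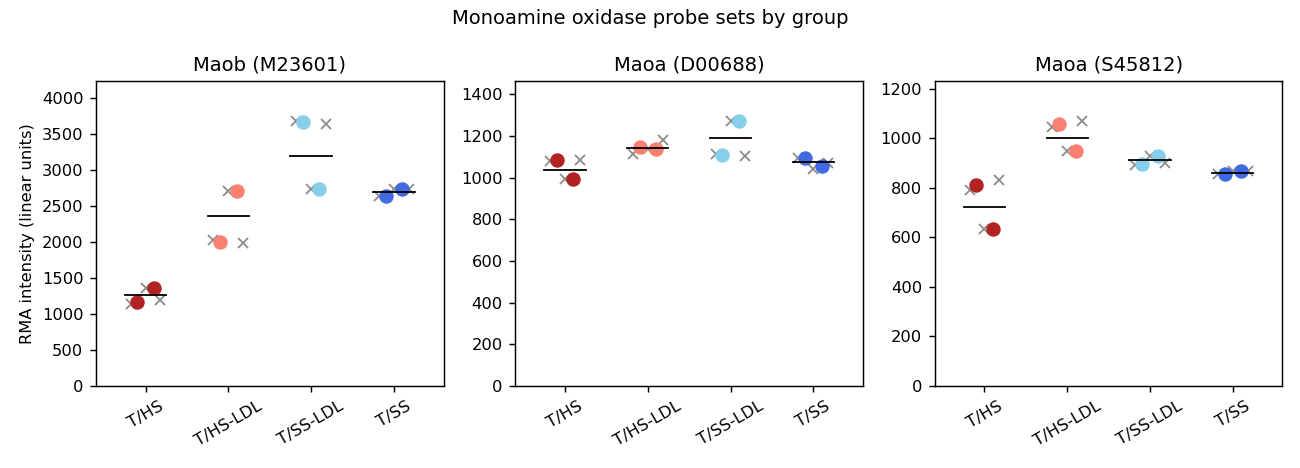
Intensity of the 3 monoamine oxidase probe sets in each group; crosses are single arrays, filled circles the 2 samples of a group after near-identical arrays were averaged, and lines the group means. Maob lies at 1161 and 1364 in T/HS, below the 6 other samples, while the groups are close together for Maoa (D00688).

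Maob and Maoa are neighbouring genes on chromosome X, in the RefSeq annotation of the GRCr8 assembly transcribed from opposite strands. Their upstream sequences are shown because the probe sets of these neighbours differed in how far they varied, and because promoters of both genes are known from human cells to be driven by Sp1-family and Kruppel-like factors, which bind GC boxes and CACCC elements. The windows run from 250 bases before to 50 bases after the start, 5′ to 3′ on the gene's strand, from RefSeq, which held such a window for 6 of the 8 genes. Capitals mark each match to GGGCGG or CACCC on either strand.
Maob, chrX:8490155-8490454, plus strand: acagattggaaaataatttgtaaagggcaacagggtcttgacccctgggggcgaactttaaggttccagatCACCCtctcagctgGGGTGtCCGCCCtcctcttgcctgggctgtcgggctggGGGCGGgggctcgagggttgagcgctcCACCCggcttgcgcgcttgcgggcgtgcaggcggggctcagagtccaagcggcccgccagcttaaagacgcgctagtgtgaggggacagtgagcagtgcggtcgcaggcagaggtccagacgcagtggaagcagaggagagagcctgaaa
Maoa, chrX:8681323-8681622, minus strand: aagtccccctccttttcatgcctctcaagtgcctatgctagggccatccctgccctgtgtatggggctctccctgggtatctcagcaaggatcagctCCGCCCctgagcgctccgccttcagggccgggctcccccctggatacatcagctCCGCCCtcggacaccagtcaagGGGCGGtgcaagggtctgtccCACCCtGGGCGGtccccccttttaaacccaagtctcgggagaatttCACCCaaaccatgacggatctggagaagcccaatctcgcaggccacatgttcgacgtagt
The Maob window held 2 GGGCGG and 3 CACCC matches, and the Maoa window held 4 GGGCGG and 2 CACCC matches, none of which overlapped one of the other kind. Of 33469 rat promoter windows of the same length, 33.1% held GGGCGG at least once, 17% at least 2 times and 4.64% at least 4 times, and 54.9% held CACCC at least once and 23.2% at least 2 times. Of the other 4 windows, that of Adrb1 held 6 CACCC and 0 GGGCGG, Adra2a 3 and 0, Adra1b 1 and 1, and Adra1d 0 and 0. Neither window held TGACGTCA, the full cyclic AMP response element, which 1.83% of all windows held. A match is a description of these letters and not a measured binding site.

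Maoa, the oxidase that prefers serotonin and noradrenaline, was measured by a pair of probe sets. The S45812_s_at probe set had intensities of 810 and 636 in T/HS, 1059 and 947 in T/HS-LDL, 895 and 928 in T/SS-LDL, and 855 and 867 in T/SS. Here too both T/HS samples lay below each of the 6 other samples, and both T/HS-LDL samples lay above them all. The difference was -0.48 ± 0.14 between T/HS and T/HS-LDL (SE, n = 2 each; 95% interval -0.80 to -0.16) and -0.26 ± 0.14 between T/HS and T/SS (95% interval -0.58 to 0.06). Between T/HS-LDL and T/SS-LDL it was 0.14 ± 0.14, and between T/SS-LDL and T/SS 0.08 ± 0.14. Without T/HS replicate 2 the difference was -0.31 between T/HS and T/HS-LDL and -0.09 between T/HS and T/SS. Without the averaged T/HS sample these were -0.66 and -0.44.

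The other Maoa probe set, D00688_s_at, varied less. Its intensities were 1084 and 992 in T/HS, 1147 and 1139 in T/HS-LDL, 1108 and 1274 in T/SS-LDL, and 1096 and 1055 in T/SS. T/HS lay below T/HS-LDL without overlap (-0.14 ± 0.11) but overlapped T/SS (-0.05 ± 0.11). The log2 values of both Maoa probe sets correlated with r = 0.73 over the 8 samples, which share their arrays, and those of Maob correlated with them at r = 0.54 (S45812_s_at) and 0.44 (D00688_s_at).

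Both T/HS samples were the lowest of all 8 in 2 of the 12 probe sets, Maob and Maoa (S45812_s_at), and in 675 of all 8740, 7.72%. The genes were chosen with these values known.

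The beta receptors had intermediate signal and small differences. Adrb1, the receptor that in the heart raises rate and force, had intensities of 713 and 589 in T/HS, 557 and 618 in T/HS-LDL, 514 and 654 in T/SS-LDL, and 712 and 697 in T/SS. The groups overlapped in every comparison but that of T/SS-LDL with T/SS, where both T/SS-LDL samples were lower (-0.28 ± 0.15; SE, n = 2 each; 95% interval -0.64 to 0.08). That difference was -0.11 without the averaged T/SS-LDL sample and -0.46 without T/SS-LDL replicate 2. Adrb3, known for lipolysis in fat, had intensities of 1038 and 936 in T/HS, 1068 and 864 in T/HS-LDL, 878 and 952 in T/SS-LDL, and 895 and 906 in T/SS. T/HS lay wholly above T/SS, by 0.13 ± 0.13 (95% interval -0.18 to 0.44), and the groups overlapped in the other comparisons.

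Among the alpha-1 receptors, Adra1b varied most and Adra1a was dim. Adra1b, the form of vascular muscle and liver, had intensities of 775 and 457 in T/HS, 577 and 837 in T/HS-LDL, 732 and 900 in T/SS-LDL, and 888 and 792 in T/SS. T/HS lay wholly below T/SS, with a difference of -0.49 ± 0.28 (95% interval -1.16 to 0.17). That difference was -0.11 without T/HS replicate 2 and -0.87 without the averaged T/HS sample. The spread within groups, 0.35 on the log2 scale, was the widest of the 12 probe sets, against a median of 0.14 over all probe sets, and no other comparison had groups apart.

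Adra1a, which contracts smooth muscle of vessels and prostate, had intensities of 251 and 220 in T/HS, 230 and 209 in T/HS-LDL, 209 and 164 in T/SS-LDL, and 218 and 251 in T/SS. Its mean stood at percentile 24.8 of all probe sets. Both T/SS-LDL samples were below both T/SS samples, with a difference of -0.34 ± 0.15 (95% interval -0.70 to 0.03), and the other comparisons overlapped. It ran from -0.51 without the averaged T/SS-LDL sample to -0.16 without T/SS-LDL replicate 2.

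Adra1d, an alpha-1 form of large arteries, had 2 probe sets of very different signal. AF071014mRNA_s_at had intensities of 1277 and 1409 in T/HS, 1434 and 1326 in T/HS-LDL, 1330 and 1401 in T/SS-LDL, and 1350 and 1353 in T/SS. M60654_at had 159 and 137 in T/HS, 146 and 129 in T/HS-LDL, 128 and 136 in T/SS-LDL, and 146 and 129 in T/SS, a mean at percentile 15.1 of all probe sets. All pairs of groups compared overlapped in the first, and its range, 1.12-fold, was at percentile 3.34 of all probe sets. The differences ran from -0.04 to 0.01 in AF071014mRNA_s_at and from -0.06 to 0.11 in M60654_at. The pair correlated at r = -0.16 over the 8 samples, so the probe sets of this gene did not vary together.

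Adra2a, the alpha-2 form that on sympathetic endings limits noradrenaline release, had 3 probe sets. U79031_at, the brightest member probe set, had intensities of 3312 and 3375 in T/HS, 3623 and 3436 in T/HS-LDL, 3162 and 3238 in T/SS-LDL, and 3662 and 3671 in T/SS. Its groups were apart in all 4 comparisons, yet the whole range was 1.16-fold, as its samples within a group differed little. T/HS lay below T/SS (-0.13 ± 0.09) and below T/HS-LDL (-0.08 ± 0.09). T/HS-LDL lay above T/SS-LDL (0.14 ± 0.09), and T/SS-LDL lay below T/SS, with a difference of -0.20 ± 0.09 (SE, n = 2 each; 95% interval -0.41 to 0.01).

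The other Adra2a probe sets had no such order. M62372cds_s_at had intensities of 621 and 505 in T/HS, 561 and 494 in T/HS-LDL, 510 and 572 in T/SS-LDL, and 593 and 556 in T/SS. S79778mRNA_s_at had 985 and 919 in T/HS, 963 and 896 in T/HS-LDL, 878 and 962 in T/SS-LDL, and 924 and 972 in T/SS. All 4 comparisons overlapped in both. These 2 correlated with each other at r = 0.77 over the samples, and with U79031_at at r = 0.23 and 0.32.

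**Figure D2:**
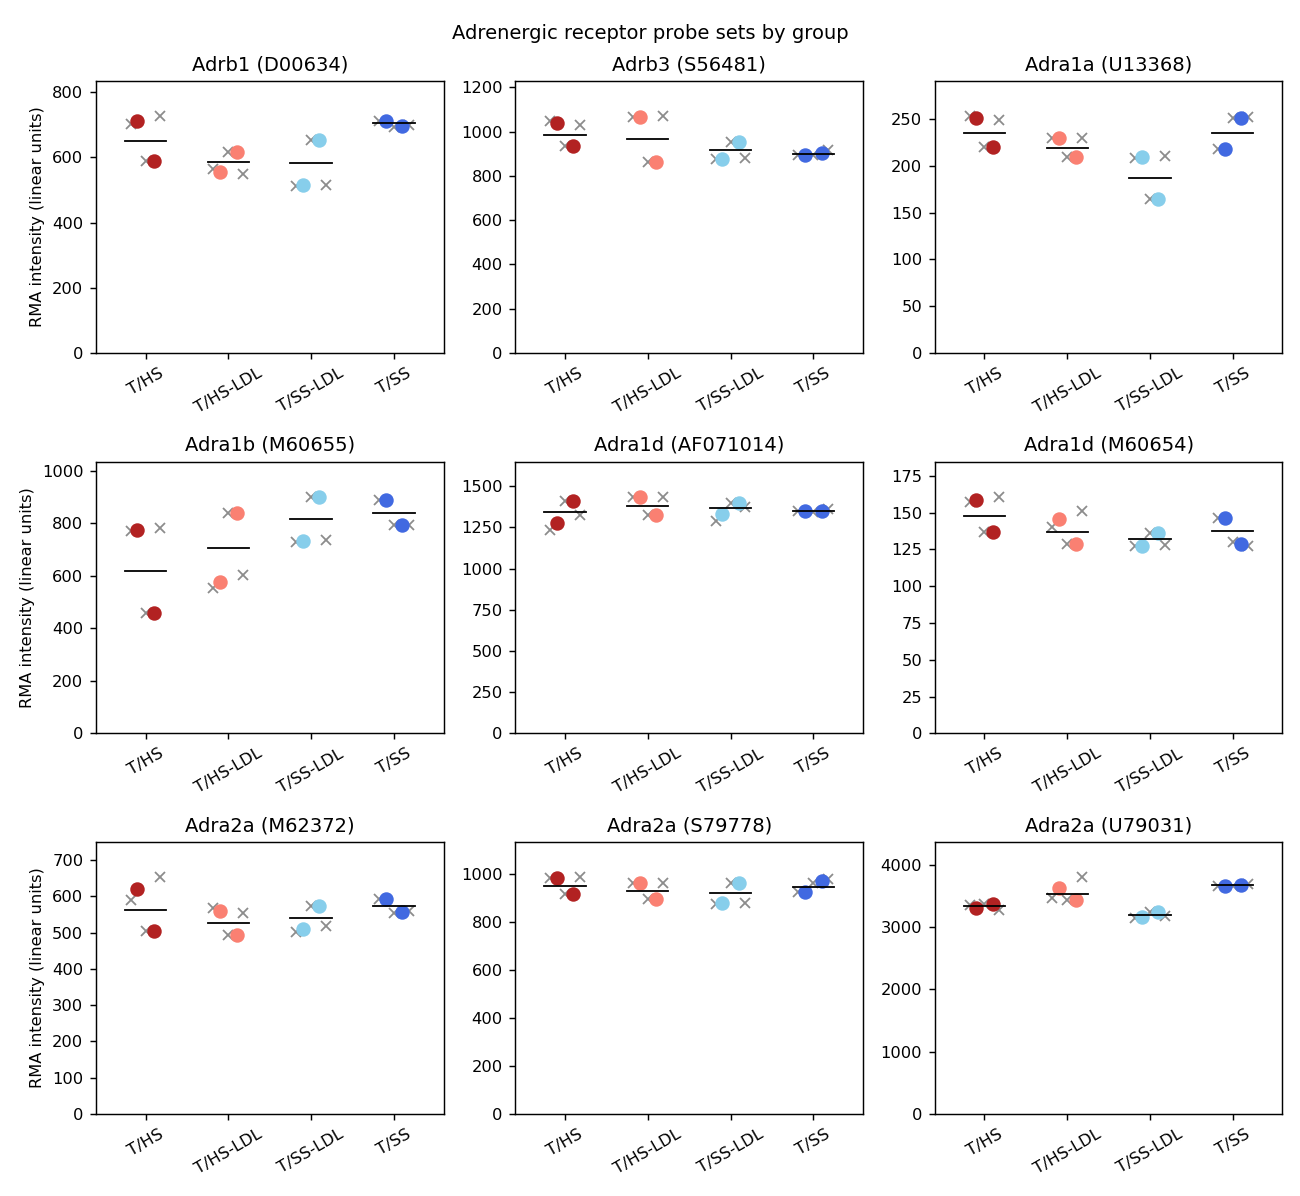
Intensity of the 9 adrenergic receptor probe sets in each group; crosses are single arrays, filled circles the 2 samples of a group after near-identical arrays were averaged, and lines the group means. Adra1b spreads most within groups, and Adra2a (U79031) has samples of a group close together.

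Across the 12 probe sets, limma called 0 at an adjusted p under 0.05 in T/HS against T/SS, as it did for 0% of all probe sets, with 1 (Maob, lower) at an unadjusted p under 0.05, against 8.80% of all probe sets (5.14% lower, 3.66% higher). T/HS lay wholly above T/SS in 1 and wholly below in 4, against 19.2% and 20.9% of all probe sets. The median difference was -0.04, against -0.01 over all probe sets.

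In T/HS against T/HS-LDL, 0 were called at an adjusted p (0% of all probe sets) and 2, Maob and Maoa (S45812_s_at), had an unadjusted limma p under 0.05, against 6.37% (4.41% lower, 1.97% higher); both members were lower. T/HS was wholly above T/HS-LDL in 0 and wholly below in 4, against 18.4% and 15.7%, and those 4 were the 3 oxidase probe sets and Adra2a (U79031_at). In T/HS-LDL against T/SS-LDL, limma called 0 (0%) by adjusted p and 0 by unadjusted p (3.79%, of which 1.98% lower and 1.81% higher). T/HS-LDL was wholly above T/SS-LDL in 2 and wholly below in 1, against 16.8% and 12.4%. In T/SS-LDL against T/SS, limma called 0 (0%) by adjusted p and 0 by unadjusted p (4.23%, of which 2.51% lower and 1.73% higher). T/SS-LDL was wholly above T/SS in 2 and wholly below in 3, against 16.2% and 24.5%. For the interaction limma called 0 (0%) by adjusted p and 0 by unadjusted p (2.99%). For shock over both duct states, the mean of the 2 shock differences, it called 0 (0%) by adjusted p and 1, Maob, by unadjusted p (9.04%). Comparisons that share a group share its samples.

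**Figure D3:**
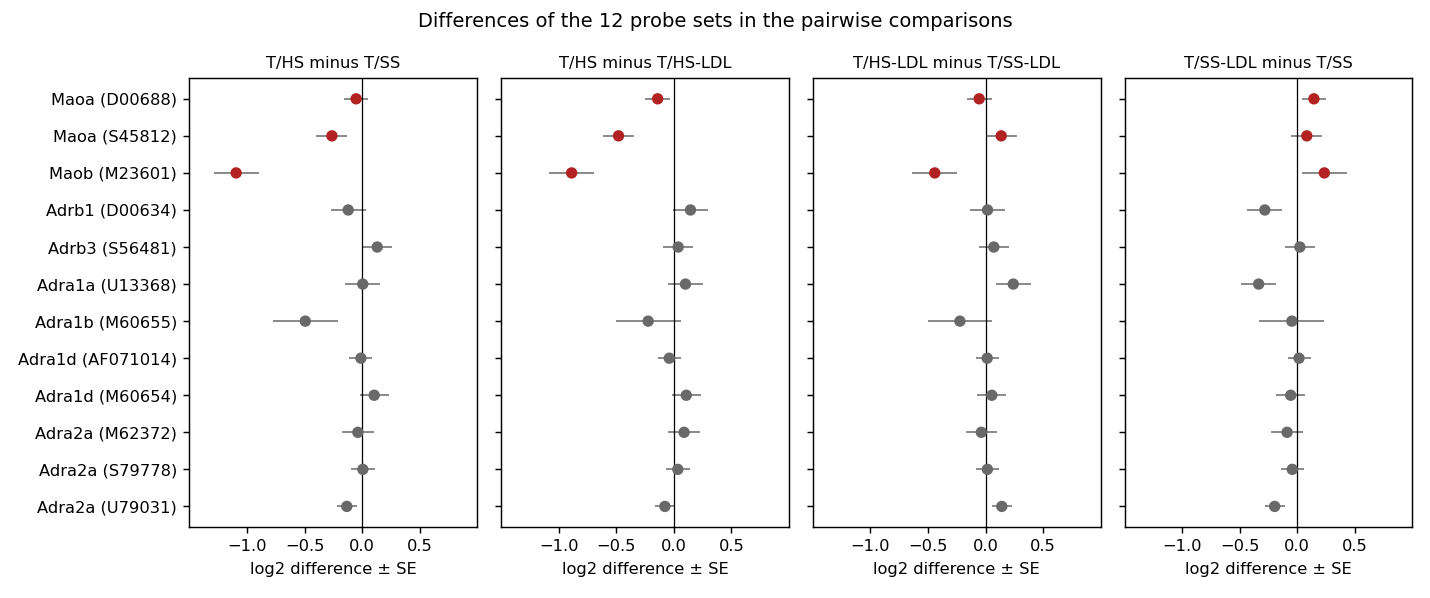
Log2 difference of the 12 probe sets in the 4 pairwise comparisons, with points for the limma estimate and bars for its SE; oxidases are red and receptors dark grey. Maob lies at -1.09 in T/HS minus T/SS and -0.89 in T/HS minus T/HS-LDL, and the receptors lie between -0.49 and 0.24 throughout.

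The probe sets whose log2 values over the 8 samples were most like those of Maob were Klf9 (r = 0.98), a Kruppel-like factor induced by glucocorticoids, Bend3 (r = 0.98), a repressor bound to chromatin, Pard3 (r = 0.98), a cell polarity protein, Cat (r = 0.98), the catalase that breaks down hydrogen peroxide, and Pgrmc1 (r = 0.97), a heme-binding membrane protein. These are the 5 highest of the correlations with all other probe sets of 1 symbol, over 8 samples on the same arrays, and are a description. Cat had intensities of 318 and 518 in T/HS, 1180 and 2341 in T/HS-LDL, 3066 and 1439 in T/SS-LDL, and 2182 and 2163 in T/SS, a difference of -2.42 between T/HS and T/SS. Klf9 had 8966 and 9181 in T/HS, 13155 and 15740 in T/HS-LDL, 18248 and 14016 in T/SS-LDL, and 14905 and 15611 in T/SS, a difference of -0.75. For both genes the lowest values were those of T/HS, which their choice by likeness to Maob over these samples makes likely.

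**Figure D4:**
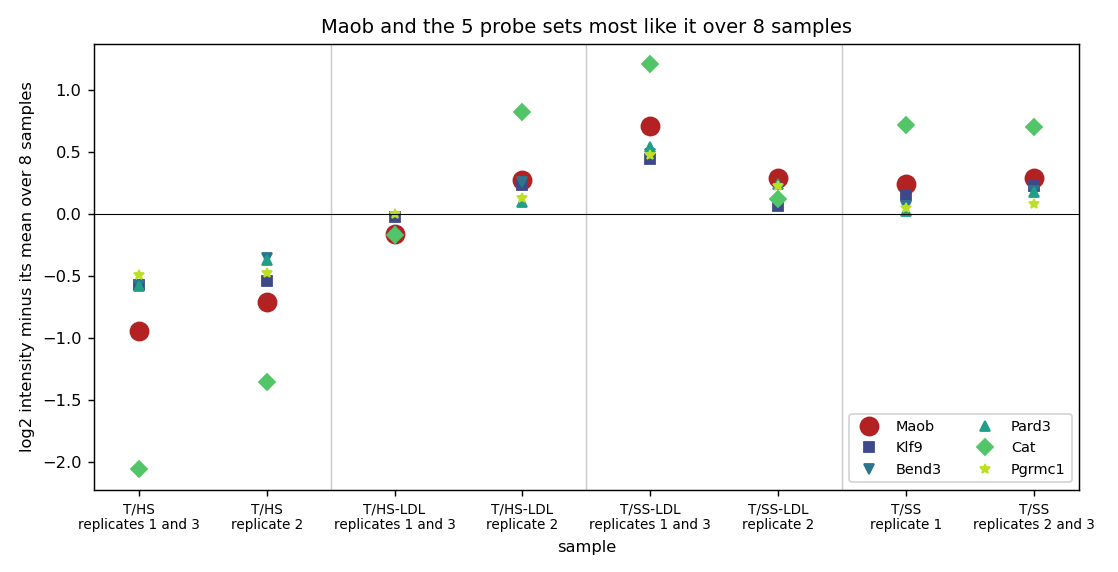
Log2 intensity of Maob and of the 5 probe sets most like it, each minus its own mean over the 8 samples, for every sample. All 6 are lowest in the 2 T/HS samples, and the 5 were picked by their likeness to Maob over these samples. Cat has the widest range.

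The genes most like the other members were, for Maoa (S45812_s_at), St13 (r = 0.95), Rpn1, Stxbp5, Mgst1 and Sec61b. For Adrb1 they were Syngr2 (r = 0.97), Golga2, Nup62, Med25 and Cct6a, and for Adrb3 Dnah9 (r = 0.96), Cdo1, Bpifa2f, Lhcgr and Lepr. For Adra1a they were Tpm3 (r = 0.97), Esr1, Tnni1, Tmem216 and Acox3. For Adra1b they were Slc25a23 (r = 0.99), Ssh3, Gsr, Slc6a4, the serotonin transporter, and Ptprs. For Adra1d (M60654_at) they were Vps33a (r = 0.99), Kctd15, Thop1, Sox10 and Gpc1, and for Adra2a (M62372cds_s_at) Ubxn6 (r = 0.98), Grin1, Ifnb1, Neu2 and Mchr1.

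Other genes of catecholamine handling and cyclic AMP signalling were taken from a list of 69, of which 58 were measured. For the 26 of them with several probe sets, the one with the highest mean was used, and dimmer ones are given for some of the named genes. Limma called 0 of the 58 at an adjusted p under 0.05 in T/HS against T/SS, with 8 at an unadjusted p under 0.05 (4 higher, 4 lower), against 8.80% of all probe sets, and a median difference of -0.01. T/HS lay wholly above T/SS in 9 of the 58 and wholly below in 10, against 19.2% and 20.9% of all probe sets. In the other pairwise comparisons 0 passed limma's adjusted p. The unadjusted counts of the 58 were 4 in T/HS against T/HS-LDL (2 higher, 2 lower; 6.37% of all probe sets), 4 in T/HS-LDL and T/SS-LDL (all lower in T/HS-LDL; 3.79%), and 1, higher, in T/SS-LDL against T/SS (4.23%).

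Of the 5 genes of catecholamine synthesis, Gch1, which makes the tetrahydrobiopterin that tyrosine hydroxylase needs, varied most. Gch1 had intensities of 822 and 3768 in T/HS, 1115 and 1865 in T/HS-LDL, 857 and 560 in T/SS-LDL, and 564 and 543 in T/SS. Both T/HS samples were above both T/SS samples, by 1.67 ± 0.65, and the difference was 0.57 without T/HS replicate 2 and 2.77 without the averaged T/HS sample. Its 3 dimmer probe sets differed by 1.19, 0.14 and 0.09. Th, tyrosine hydroxylase, which starts the pathway, differed by 0.06 ± 0.11 between T/HS and T/SS. Ddc, the decarboxylase of the next step, differed by -0.11 ± 0.14, and Dbh, which makes noradrenaline from dopamine, by 0.10 ± 0.12. Against T/HS-LDL, both T/HS samples were higher for Dbh, by 0.36 ± 0.12, and for Pnmt, which makes adrenaline from noradrenaline, by 0.60 ± 0.21. Dbh was dim, with a mean at percentile 14.1 of all probe sets and intensities of 137 and 154 in T/HS, against 107 and 119 in T/HS-LDL. The Pnmt difference was 0.26 without the averaged T/HS-LDL sample and 0.93 without T/HS-LDL replicate 2. Pnmt had 2538 and 2237 in T/HS, 1249 and 1993 in T/HS-LDL, 1947 and 2166 in T/SS-LDL, and 1970 and 1893 in T/SS.

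Of the 6 measured genes of uptake and storage, Slc18a1, a vesicular amine transporter, was higher in both T/HS samples than in both T/SS samples (0.37 ± 0.13; 0.21 without T/SS replicate 1). It too was dim, with intensities of 148 and 161 in T/HS, against 107 and 133 in T/SS. The other 5, the noradrenaline transporter Slc6a2, the dopamine transporter Slc6a3, the vesicular transporter Slc18a2 and the organic cation transporters Slc22a2 and Slc22a3, differed by -0.08 to 0.08 there.

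Besides the oxidases, 7 genes of catecholamine breakdown were measured, and 5 of them lay below 0 in T/HS minus T/SS. Sult1a1, a sulfotransferase of phenols and amines, differed by -0.43 ± 0.45, and Aldh1a1, an aldehyde dehydrogenase, by -0.31 ± 0.18. Aldh1a1 had intensities of 16999 and 12047 in T/HS, against 17575 and 17852 in T/SS, and differed by -0.06 without T/HS replicate 2 and by -0.56 without the averaged T/HS sample. The dimmer Sult1a1 probe set differed by -0.77. The other 5 were Aldh2, Aldh3a1 and Aldh3a2, which oxidise aldehydes, and Akr1a1 and Akr1b1, which reduce them, and these differed by -0.09 to 0.07; a dimmer Akr1b1 probe set differed by -0.30. Between T/HS-LDL and T/SS-LDL, 6 of the 7 lay below 0, with Aldh1a1 at -0.53 ± 0.18 and Akr1a1 at -0.32 ± 0.11 (-0.20 without the averaged T/HS-LDL sample), both with groups apart. Aldh1a1 had intensities of 13379 and 16506 in T/HS-LDL, against 22687 and 20240 in T/SS-LDL.

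Downstream of the receptors, Pde4b, a phosphodiesterase that degrades cyclic AMP, had intensities of 6230 and 14623 in T/HS, 4525 and 8508 in T/HS-LDL, 5718 and 3341 in T/SS-LDL, and 2589 and 4581 in T/SS. Both T/HS samples were above both T/SS samples, by 1.47 ± 0.52, and the difference was 0.86 without T/HS replicate 2. Its 3 dimmer probe sets differed by 1.65, 0.69 and 0.17, also with T/HS wholly above T/SS. The catalytic subunits of protein kinase A were lower in both T/HS than in both T/SS samples, with differences of -0.59 ± 0.19 for Prkaca and -0.43 ± 0.15 for Prkacb. Prkaca had 2513 and 1701 in T/HS, against 3040 and 3176 in T/SS, a difference of -0.31 without T/HS replicate 2. The other probe set of each gene differed by -0.09, with groups that overlapped. Grk5, a kinase that desensitises receptors, lay below T/SS in both T/HS samples (-0.39 ± 0.14; -0.26 without T/SS replicate 1), while Grk3, of the same family, lay above (0.26 ± 0.10). Arrb1, an arrestin, differed by -0.30 ± 0.13 between T/HS and T/HS-LDL (-0.17 without T/HS replicate 2).

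Pkia, an inhibitor of protein kinase A, and Akap5, which anchors that kinase, were both lower in T/HS-LDL than in T/SS-LDL, with groups apart. Pkia had intensities of 540 and 499 in T/HS, 597 and 591 in T/HS-LDL, 802 and 953 in T/SS-LDL, and 454 and 566 in T/SS. It differed by -0.56 ± 0.14 between T/HS-LDL and T/SS-LDL and by 0.79 ± 0.14 between T/SS-LDL and T/SS, so T/SS-LDL was the highest group. Of its dimmer probe sets, 1 differed by 0.63 between T/SS-LDL and T/SS and the other by 0.00. Akap5 had 227 and 218 in T/HS, 200 and 206 in T/HS-LDL, 284 and 299 in T/SS-LDL, and 259 and 274 in T/SS. It differed by -0.52 ± 0.09 between T/HS-LDL and T/SS-LDL and by -0.26 ± 0.09 between T/HS and T/SS, and both shocked groups lay below both sham groups. The remaining receptors of the list, Adra2b and Adra2c, differed by 0.06 ± 0.11 and -0.09 ± 0.12 between T/HS and T/SS.

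**Figure D5:**
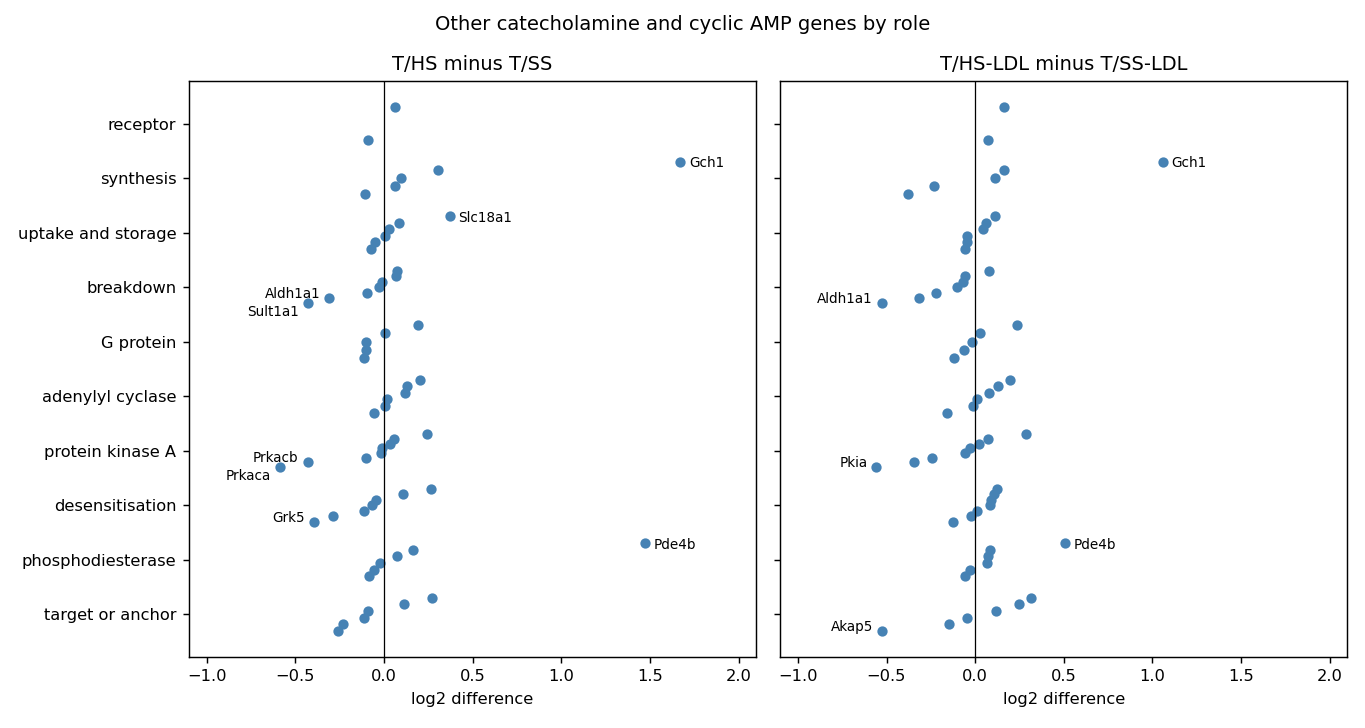
Log2 differences of the 58 other genes of catecholamine handling and cyclic AMP signalling, 1 point per gene, grouped by role, in T/HS minus T/SS and T/HS-LDL minus T/SS-LDL; names mark the 8 largest differences in the left panel and differences over 0.5 in size in the right. Gch1 and Pde4b lie at 1.67 and 1.47 in T/HS minus T/SS, and most others lie near 0.

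Markers of other cells also moved with the groups. The 6 measured mast cell markers summed to 3279 to 3387 in T/HS, 3731 to 3929 in T/HS-LDL, 3438 to 3790 in T/SS-LDL and 3972 to 4635 in T/SS. T/HS was lowest, and 5 of the 6 lay below 0 in T/HS minus T/SS. In T/SS-LDL minus T/SS all 6 lay below 0, with a median of -0.25. Maob differed there by 0.23 ± 0.20, with groups that overlapped. The 7 measured fat and mesothelium markers summed to 22457 to 29478 in T/HS, 32492 to 33473 in T/HS-LDL, 29910 to 34296 in T/SS-LDL and 30086 to 32577 in T/SS, also lowest in T/HS. In T/HS minus T/SS, 5 of the 7 lay below 0 and 2 above, with a median of -0.04, and Lpl, lipoprotein lipase, lay at -1.17. The 2 measured platelet markers, of cells that in humans are rich in this oxidase, summed to 7227 to 7501 in T/HS, 6826 to 10350 in T/HS-LDL, 7411 to 14783 in T/SS-LDL and 8653 to 11642 in T/SS. Both lay below 0 in T/HS minus T/SS, while in T/HS minus T/HS-LDL 1 lay above 0 and 1 below, with a median of -0.09. Only 2 of the 5 listed platelet genes were measured. Their sum is mostly Pf4 (geometric mean 8136), with Itga2b at 832.

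The 6 measured smooth muscle markers, of cells that carry alpha-1 receptors, summed to 33936 to 40963 in T/HS, 33776 to 39542 in T/HS-LDL, 48651 to 53356 in T/SS-LDL and 40739 to 51424 in T/SS. All 6 lay below 0 in T/HS-LDL minus T/SS-LDL, and 5 of the 6 in T/HS minus T/SS. The 9 heart muscle markers summed to 20886 to 24824 in T/HS, 7106 to 20513 in T/HS-LDL, 23728 to 27308 in T/SS-LDL and 10364 to 22466 in T/SS. All 9 lay above 0 in T/HS minus T/HS-LDL, with a median of 0.70, and 8 of the 9 in T/HS minus T/SS, with a median of 0.57. In T/HS-LDL minus T/SS-LDL 8 of the 9 lay below 0, with a median of -0.75. The 7 measured neutrophil markers summed to 36801 to 71707 in T/HS, 62589 to 70797 in T/HS-LDL, 33313 to 44157 in T/SS-LDL and 21418 to 26848 in T/SS. All 7 lay above 0 in T/HS minus T/SS, with a median of 1.21, and in T/HS-LDL minus T/SS-LDL, with a median of 0.88. In T/HS minus T/HS-LDL 2 lay above 0 and 5 below, with a median of -0.60. The 9 measured markers of sympathetic nerve, which include Th and Dbh, summed to 5771 to 6875 in T/HS, 5593 to 7057 in T/HS-LDL, 6892 to 10159 in T/SS-LDL and 7574 to 7623 in T/SS. While this sum was lower in T/HS than in T/SS, 7 of the 9 lay above 0 in T/HS minus T/SS, with a median of 0.06. No marker list had a gene at 0. The part of these cells in the differences of the oxidases and receptors was not tested.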

How the data were processed

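Intensity values of 12 one-colour Affymetrix rat genome arrays of lung were deposited by the authors, made with RMA per the submitters' processing notes, with no version given and no pooling stated; RMA corrects background, equalises arrays and sums up the probes of a set. All values were above 0 on a linear scale, and log2 of each was taken with no further scaling. The 59 control probe sets were dropped from the 8799, and 8740 were tested. Gene symbols came from the platform's annotation: 7006 probe sets had 1 symbol, 308 several and 1426 none, and only the first were named. A gene of a list with several probe sets was represented by the one with the highest mean.

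Arrays of a group with a robust SD of log2 differences under 0.1 were averaged (4 pairs), leaving 8 samples. One model of the 4 groups was fitted by lmFit and eBayes (limma 3.58.1, R 4.3.3; 4 residual and 2.85 prior degrees of freedom), two-sided, with Benjamini-Hochberg adjustment over all probe sets and a threshold of 0.05. The code was tested on simulated data with less spread than these samples had, which checks the code and not what the arrays can resolve. The contrasts were the shock difference with the duct open (T/HS, T/SS) and ligated (T/HS-LDL, T/SS-LDL), the ligation difference with shock (T/HS, T/HS-LDL) and sham shock (T/SS-LDL, T/SS), the interaction, and shock over both duct states.

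The members, the wider gene list, the marker lists and the averaging were chosen with earlier results of these data known. All member probe sets were named. Of the wider list, the 8 genes with the largest difference between T/HS and T/SS, up to 8 more with an unadjusted p under 0.05 in a pairwise comparison, and all of synthesis, uptake and breakdown were named; Adra2b and Adra2c were named after their values were seen. Likeness was Pearson's r of log2 values over the 8 samples. Alternatives were the 12 arrays as separate samples, with the replicate number or the sample as a block, other scalings and filters, and each sample left out. Replicate numbers did not pair the samples: deviations of same-numbered arrays correlated above 0.1 in 3 of 18 pairs of arrays.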

Additional observations from a re-analysis of the deposited data

Results flagged for a closer look

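The Maoa probe set S45812_s_at had a shock difference of opposite sign with the duct open and ligated: both T/HS samples lay below both T/SS samples, and both T/HS-LDL samples lay above both T/SS-LDL samples. The difference with the duct open minus that with the duct ligated was -0.40 ± 0.19 (log2, with the SE, from 2 samples a group), which limma's interaction test did not pass (unadjusted p 0.076, limma adjusted p 1.0). It was -0.22 without T/HS replicate 2 and -0.57 without the averaged T/HS sample, and the other Maoa probe set, D00688_s_at, had an interaction of 0.00 ± 0.15.

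The Adra2a probe set U79031_at also had shock differences of opposite sign, below 0 with the duct open and above 0 with it ligated, with an interaction of -0.27 ± 0.12 (SE, n = 2 samples in each) that also did not pass (unadjusted p 0.064, limma adjusted p 1.0). Shock differences of opposite sign, in either direction and with groups that did not overlap, were seen in 2 of the 12 probe sets and in 287 of all 8740, 3.28%.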

How the results depend on the processing

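With the 12 arrays as separate samples, near-identical arrays counted as replicates, limma called 1 of the 12 probe sets in T/HS against T/SS (Maob), 2 in T/HS against T/HS-LDL (Maob and Maoa S45812_s_at) and 1 for shock over both duct states (Maob), beside 629, 372 and 733 of all 8740 probe sets. It called 127 of all in T/HS-LDL against T/SS-LDL, 141 in T/SS-LDL against T/SS and 1 for the interaction, with 0 members. With the replicate number as a block, the same 3 contrasts gave 1, 2 and 1 members, beside 456, 130 and 570 of all, and the others 0 members, beside 47, 21 and 1. With a random block for the sample, limma called 1 member (Maob) in T/HS against T/SS and 1 (Maob) for shock over both duct states, beside 25 and 58 of all, and 0 elsewhere. The 8 samples gave 0 in each.

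Leaving out 1 sample at a time, limma called 0 members, and 0 to 139 of all probe sets in T/HS against T/SS, 0 to 66 in T/HS against T/HS-LDL, 0 to 2 in T/HS-LDL against T/SS-LDL, 0 to 2 in T/SS-LDL against T/SS, 0 to 27 for the interaction and 0 to 108 for shock over both duct states. Without the averaged T/HS sample the counts were 139, 66, 2, 0, 27 and 108 in that order, and without T/HS replicate 2 they were 5, 4, 2, 0, 1 and 10; the lone T/HS sample then takes its spread from the other groups. The median difference of the 12 probe sets, with each sample left out, ran from -0.12 to 0.01 in T/HS against T/SS and from -0.057 to 0.098 in T/HS against T/HS-LDL.

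The other scalings and filters kept the direction of every Maob difference. Leaving out the dimmest probe sets removed Adra1a and Adra1d (M60654_at). Dim probe sets and 2 samples per group limit what can be resolved.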
